A study of Mus with 2 samples.

Results

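Nts, Penk, Cck, Npy, Oxtr and Cbln4 are genes of peptide signalling, followed here through the newborn mouse kidney. They are 6 of the 28693 features counted in each library and were found by their symbols. They were chosen by their levels in the cell types of these same libraries, which had already been seen to differ, so those levels are given here as a description, with no test. Nts, Penk, Cck and Npy encode precursors of neuropeptides. Oxtr encodes a receptor, and Cbln4 encodes a secreted synapse-organizing protein of the C1q family, so neither is a neuropeptide.

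The study used single-cell RNA sequencing of whole kidneys at P0, the day of birth, on the 10x Chromium platform, which counts the 3' ends of transcripts as unique molecular identifiers (UMIs). Its design set 2 mutant kidney libraries (Rbpj c/- ; Foxd1cre/+) against 2 control libraries (Rbpj c/+ ; Foxd1cre/+). The 2 mutant libraries were analysed, and the controls were not analysed here, so nothing below separates an effect of the genotype from the normal newborn pattern. Both libraries carry 1 floxed and 1 null allele of Rbpj, the DNA-binding partner of activated Notch, and 1 Foxd1cre allele, which drives recombination in the lineage of the renal interstitium. Labels do not say whether the libraries came from separate animals, so the spread between them may be technical.

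Neuropeptides are made as long precursors, cut by convertases in the secretory pathway, trimmed and often amidated, and released to act on G protein-coupled receptors. They are best known from neurons and endocrine cells, but Penk is also a familiar gene of embryonic mesenchyme. The embryonic kidney stroma forms cortical, medullary, mesangial and perivascular populations around the nephrons, while the renal vesicle is the first epithelial stage of the nephron after the mesenchymal progenitors condense.

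Library 1 held 163405630 UMIs and library 2 held 135436576 UMIs. In the 2 libraries 6910 and 5917 barcodes reached 2000 UMIs, and 5910 and 4937 cells were kept after removing barcodes over 10% mitochondrial UMIs and predicted doublets, with medians of 11716.5 and 12196 UMIs per cell. Among the barcodes with at least 2000 UMIs, 8 sequences occurred in both libraries. Cells were clustered, clusters were named from marker genes, and stromal, early nephron and ureteric cells were then gated on marker lists, which gave 22 cell groups with at least 20 cells in each library. The names rest on markers only and are written with "-like"; 369 cells (6.24%) of library 1 and 228 cells (4.62%) of library 2 stayed in clusters without a name. The gate placed 800 of 1340 stromal cells (59.7%) in library 1 and 644 of 1135 (56.7%) in library 2, and 299 and 242 stromal cells lay within 0.1 score units of the gate's minimum lead, so the stromal groups have soft edges. Counts of Rbpj itself did not check the genotype, since the deleted exons are not stated and 3' counts can lie outside them. Rbpj stood at 26.4 and 26.1 counts-per-million UMIs (CPM) in stromal and mural cells and at 49.4 and 50.2 CPM in all other cells.

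The 6 genes fell into 2 sets. Nts, Penk and Cck were highest in medullary stroma-like cells, and Npy, Oxtr and Cbln4 were highest in renal vesicle-like cells, the early nephron cells gated on Lhx1, Wnt4, Fgf8 and Ccnd1. For each gene the lower of the 2 library values in its leading group lay above the higher value in the next group of the 22. Genes were not compared with one another by level, because the capture of each 3' end differs. The plot of the 6 genes across the 22 groups shows both sets.

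**Figure D1:**
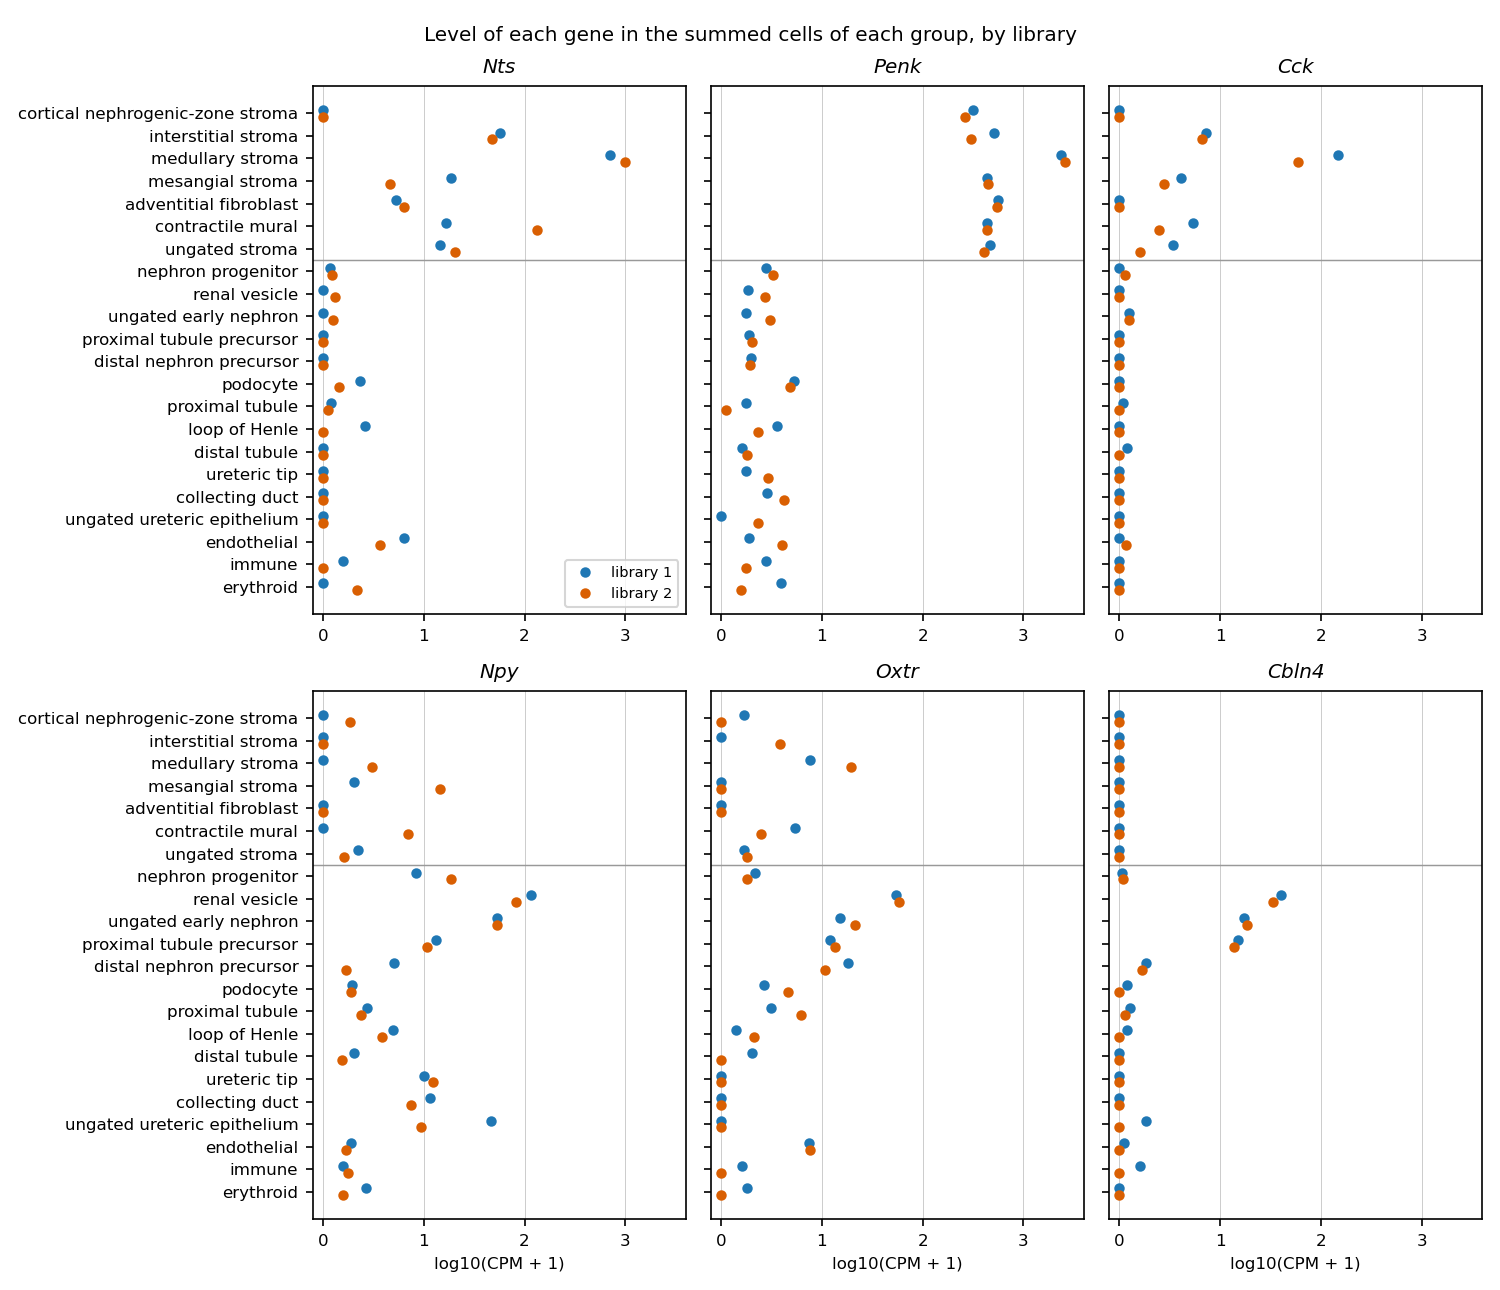
Level of each gene in the 22 cell groups. Each panel is 1 gene, the vertical axis names the groups, the horizontal axis is log10(CPM + 1), and the points are library 1 (blue) and library 2 (orange). Nts, Penk and Cck peak in medullary stroma-like cells, and Npy, Oxtr and Cbln4 in renal vesicle-like cells.

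Nts (ENSMUSG00000019890, chr10:102481756-102490418 of mm10) encodes the precursor of neurotensin and neuromedin N, a gut and brain peptide. In medullary stroma-like cells, 78 in library 1 and 94 in library 2, its level was 699 CPM (532 UMIs) and 988 CPM (956 UMIs), a mean of 844 ± 204 CPM (SD, n = 2). Both libraries were high, and no other group came near them. The next group, contractile mural-like cells, had 15.5 and 132 CPM, and there a single cell held 11 of the 14 UMIs in library 1 and 48 of the 88 in library 2. The leading mean was 11.4 times that of this second group.

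Below it, interstitial stroma-like cells had 51.2 ± 6.42 CPM (SD, n = 2), ungated stromal cells 16.5 ± 4.23 and mesangial-like cells 10.6 ± 9.91. Contractile mural-like, interstitial and ungated stromal cells did not differ beyond the spread of the first of these. Cortical nephrogenic-zone stroma-like cells had no Nts UMI in either library. Outside the stroma, endothelial-like cells had 5.33 and 2.66 CPM. Even within the leading group Nts was uneven: 51.3% of cells in library 1 and 47.9% in library 2 had a Nts UMI, the highest cell held 74 and 92 UMIs, and 8 and 10 cells carried 50% of all Nts UMIs. With each cell thinned to 5000 UMIs, which left out 8 and 3 shallower cells, the shares were 48.6% and 45.1%.

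Penk (ENSMUSG00000045573, chr4:4133536-4138815) encodes proenkephalin, the precursor of the enkephalin opioid peptides. It was found throughout the stroma. In medullary stroma-like cells it stood at 2360 CPM (1795 UMIs) in library 1 and 2561 CPM (2478 UMIs) in library 2, a mean of 2460 ± 142 CPM, and 98.7% and 97.9% of these cells had a Penk UMI (95.7% and 96.7% after thinning). Adventitial fibroblast-like cells came second at 549 ± 11.2 CPM, so the leading mean was 4.48 times higher.

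The other stromal groups lay close together. Mesangial-like cells had 431 and 447 CPM, ungated stromal cells 439 ± 42.9, contractile mural-like cells 434 ± 2.45 and interstitial stroma-like cells 404 ± 150, and these 4 did not differ beyond their spread. Cortical nephrogenic-zone stroma-like cells were lowest among the stromal groups, at 319 and 265 CPM, overlapping the interstitial group, which had 510 and 298 CPM. That order rests on cells of cluster 8, described below, which holds no cortical cell: outside it, contractile mural-like cells had 271 and 186 CPM and interstitial stroma-like cells 356 and 81.3 CPM. The highest group outside the stroma was podocyte-like, at 4.07 ± 0.375 CPM. Stromal and mural cells made up 22.7% and 23.0% of all cells and held 97.6% and 97.8% of all Penk UMIs.

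Cck (ENSMUSG00000032532, chr9:121489824-121495694), the precursor of the gut and brain peptide cholecystokinin, was the scarcest of the 6, with 147 and 72 UMIs in all kept cells. Medullary stroma-like cells held 111 and 57 of these, at 146 and 58.9 CPM (mean 102 ± 61.5), and 30.8% and 26.6% of the cells had a UMI. The libraries differed more for Cck than for Nts or Penk, and in each of them 5 cells held 50% of the group's Cck UMIs. After thinning the shares were 27.1% and 15.4%. Interstitial stroma-like cells followed at 5.92 ± 0.380 CPM, and the leading mean was 17.3 times that. The groups from contractile mural-like (2.97 ± 2.07 CPM) to ungated stroma (1.52 ± 1.29 CPM) did not differ beyond their spread.

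Nts and Cck followed one cluster more closely than Penk did. Cluster 8, whose leading gene by fold was Alx1, held 107 cells of library 1 and 146 of library 2. Inside this cluster, medullary stroma-like cells had 991 and 1164 CPM of Nts, whereas the 27 and 16 medullary stroma-like cells outside it had 142 and 6.79 CPM. Cck showed the same split, with 200 and 69.5 CPM inside and 42.1 and 0 CPM outside. Penk was less divided: 2776 and 2687 CPM inside, 1563 and 1855 CPM outside.

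In other gated groups, too, Nts was higher inside the cluster wherever it held at least 5 of a group's cells in a library. Interstitial stroma-like cells inside it had 357 and 153 CPM of Nts, against 1.22 and 3.96 CPM for those outside. Contractile mural-like cells inside it had 96.8 and 588 CPM, against 1.30 and 1.94 CPM outside. Not all Nts lay in it: of the mesangial-like cells of library 1, 5 cells inside held 15 UMIs and 184 outside held 19, and in adventitial fibroblast-like cells the 2 UMIs of each library were all outside. The medullary stroma-like group was itself gated on Alx1, Corin, Wnt4 and Cdkn1c, and both the gate and the clusters were built from these same counts, so these values describe the overlap and are not a test. Other stromal clusters held Penk without Nts or Cck in quantity: cluster 16, led by Gucy1a3 and Snai2, had 751 and 596 CPM of Penk and cluster 30, led by Postn and Dlk1, had 680 and 547 CPM. Penk was lower in cluster 15 (330 ± 30.8 CPM), in cluster 23 (258 ± 32.9 CPM) and in cluster 17, led by Igfbp3 and Lox (74.0 ± 39.2 CPM). In cluster 27, the 59 mural-like cells led by Myh11 and Actg2, Penk had 13.0 and 3.24 CPM. That is far below the 434 ± 2.45 CPM of the contractile mural-like group, whose 159 cells came from other stromal clusters too.

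The level in the medullary stroma-like group depended on how its cells were chosen. Over 13 settings, the main one and the removal of either library included, the mean ranged from 52.6 to 988 CPM for Nts, from 678 to 2561 CPM for Penk and from 5.38 to 146 CPM for Cck. The lowest Nts and Cck values came with class names without the rules added after seeing the data. The lowest Penk value came with a mitochondrial limit of 5%. In all 13 settings this group was the highest of the groups compared for all 3 genes. Without the added rules, though, cluster 8 had no class name and was not among those groups. Its Nts and Cck levels, means of 737 and 82.7 CPM, lay above the 52.6 and 5.38 CPM of the medullary stroma-like group in that setting.

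**Figure D2:**
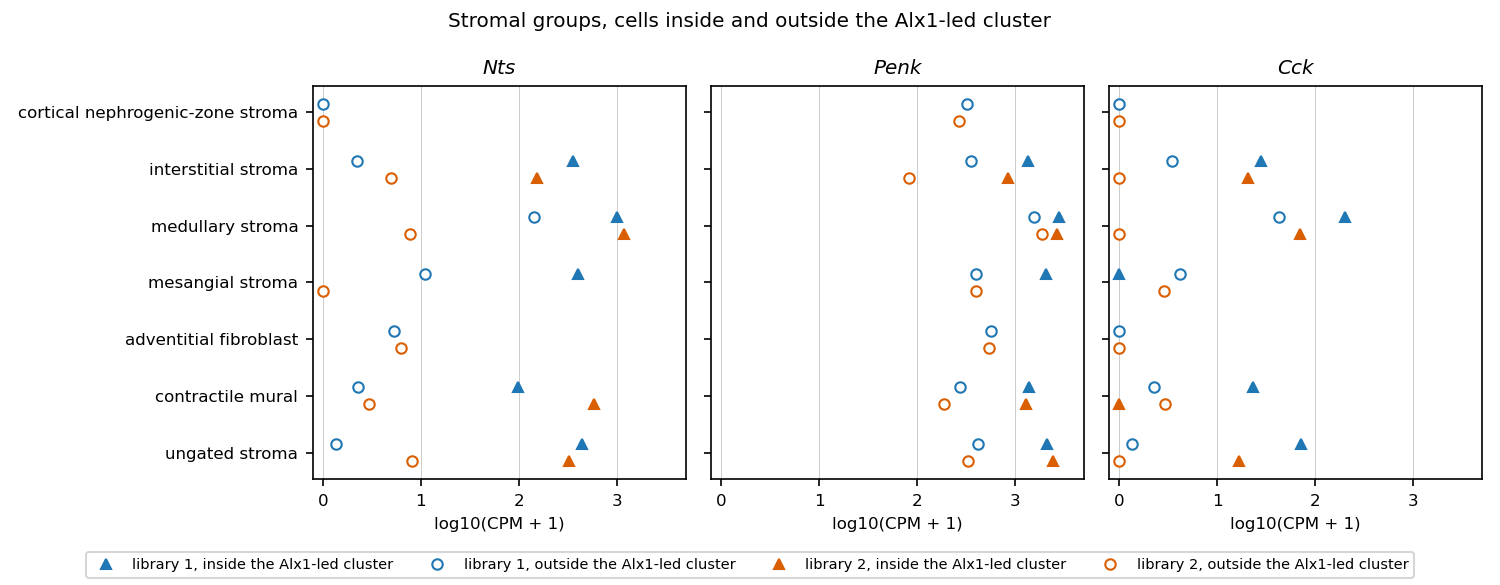
Nts, Penk and Cck in the gated and ungated stromal groups, split by membership of the cluster led by Alx1. The horizontal axis is log10(CPM + 1), the vertical axis names the groups, triangles are cells inside the cluster, open circles are cells outside it, colours mark the library, and points with under 5 cells are left out. Nts is higher inside the cluster than outside it wherever both are plotted for a library, Cck likewise except at 0 inside it in mesangial-like cells of library 1 and contractile mural-like cells of library 2, while Penk stays high in medullary stroma-like cells outside it (1563 and 1855 CPM).

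Npy (ENSMUSG00000029819, chr6:49822710-49829507), the precursor of neuropeptide Y, a transmitter of sympathetic nerves, was highest in the 200 and 205 renal vesicle-like cells. Its level there was 114 CPM (916 UMIs) in library 1 and 81.2 CPM (512 UMIs) in library 2, a mean of 97.5 ± 23.1 CPM, and 72.0% and 63.9% of the cells had a UMI. After thinning to 5000 UMIs, which left out 1 and 0 cells, the shares were 39.2% and 31.2%. Ungated early nephron cells followed at 52.6 ± 0.374 CPM, so the lead over the next group was 1.85 times, the smallest of the 6.

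Npy was also counted in other epithelia. Proximal tubule precursor-like cells had 11.1 ± 1.75 CPM, ureteric tip-like cells 10.2 ± 1.67 and collecting duct-like cells 8.47 ± 2.80, and these 3 did not differ beyond their spread. Ungated ureteric cells had 46.0 and 8.47 CPM, but a single cell of library 1 held 28 of its 54 UMIs. Nephron progenitor-like cells, the mesenchymal cells that give rise to the renal vesicle, had 7.29 and 17.6 CPM.

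The gap between the libraries in nephron progenitor-like cells came from 2 cells of library 2. They had 165 and 89 Npy UMIs and carried UMIs of both Dbh, the enzyme that makes noradrenaline, and Chga, a protein of secretory granules. The first held 64 UMIs of Chga and 188 of its relative Chgb, with 23 Penk and 2 Cck UMIs, and the second held 51 UMIs of Prph and 98 of Stmn2, genes of peripheral and other neurons. Another such cell of library 2, in the mesangial-like group, had 15 Npy and 15 Chgb UMIs. The rule of Dbh and Chga UMIs was picked from 5 pairs of genes tried after these cells had been seen. Hand2 or Elavl4 in place of Chga gave the same 3 cells, Th gave 2 of them, and Stmn2 gave 6 cells with these 3 among them. Without the 3 cells, Npy stood at 7.29 and 6.64 CPM in nephron progenitor-like cells and at 1.04 and 0 CPM in mesangial-like cells. Renal vesicle-like cells contained none of them. Chgb was among the 10 leading genes of cluster 7, a nephron progenitor-like cluster that holds 2 of these cells.

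Npy differed among the progenitor clusters, which are given here in the order of their Npy level. It had 1.88 and 0.921 CPM in cluster 25, led by Cited1 and Six2, and 5.08 and 4.43 CPM in cluster 29, a second cluster with Six2 and Cited1. Cluster 28, progenitor-like cells led by histone genes, had 10.6 and 15.6 CPM. Cluster 7, which is led by Fam132a and Col9a1 and also has Wnt4 among its leading genes, had 25.6 CPM in library 1 and 24.2 CPM in library 2 without the 2 neuronal-marker cells (105 CPM with them). Cluster 1, led by Lhx1 and Wnt4, had 116 and 90.5 CPM. The other early nephron clusters were lower, at 11.6 and 10.2 CPM in cluster 0, led by Sim2 and Irx1, and 13.4 and 14.7 CPM in cluster 5, led by Osr2.

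Oxtr (ENSMUSG00000049112, chr6:112473683-112491035) encodes the oxytocin receptor, a G protein-coupled receptor best known from uterus, mammary gland and brain. Renal vesicle-like cells had 53.1 CPM (427 UMIs) and 57.7 CPM (364 UMIs), a mean of 55.4 ± 3.31, with a UMI in 60.5% and 58.5% of cells (24.6% and 22.4% after thinning). Both libraries were above every other group. Ungated early nephron cells came next at 17.2 ± 4.31 CPM, and the leading mean was 3.22 times higher.

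Several groups then shared a lower level of Oxtr. Distal nephron precursor-like cells had 13.5 ± 5.43 CPM, medullary stroma-like cells 12.6 ± 8.50, and proximal tubule precursor-like cells 11.8 ± 0.981, and these 3 did not differ beyond their spread. Ungated early nephron cells overlapped the first 2 of them but not the proximal precursors, at 14.2 and 20.3 CPM against 11.2 and 12.5 CPM. The medullary value rested on 5 UMIs in library 1 and 18 in library 2, all in cells of the Alx1-led cluster. Endothelial-like cells had 6.51 ± 0.0723 CPM, and among their clusters the one led by Gpihbp1 and Ehd3 had the highest level, 13.5 and 15.6 CPM from 21 and 8 UMIs. Nephron progenitor-like cells had 1.17 and 0.823 CPM.

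Cbln4 (ENSMUSG00000067578, chr2:172036336-172043466) encodes cerebellin 4, which in the brain bridges presynaptic neurexins to postsynaptic partners. Renal vesicle-like cells had 39.5 CPM (318 UMIs) and 32.7 CPM (206 UMIs), a mean of 36.1 ± 4.84, and 42.0% and 37.6% of cells had a UMI (17.1% and 11.2% after thinning). Ungated early nephron cells had 16.9 ± 1.07 CPM and proximal tubule precursor-like cells 13.4 ± 0.977. The leading mean was 2.13 times that of the second group. In 2 of 13 settings, without doublet removal and under class names without the added rules, proximal tubule precursor-like cells were highest for Cbln4 instead.

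Cbln4 was lower in distal than in proximal nephron precursors. Distal nephron precursor-like cells had only 0.757 ± 0.0961 CPM, from 8 UMIs in both libraries together, and the proximal range did not overlap it. The gap was smaller between whole clusters: cluster 0, led by Sim2 and Irx1, had 6.48 ± 1.25 CPM from 99 UMIs and cluster 5, led by Osr2, had 18.5 ± 0.280 CPM. Nephron progenitor-like cells had 2 UMIs in each library. Early nephron cells made up 12.1% and 13.5% of all cells and held 97.8% and 98.6% of the Cbln4 UMIs, against 71.4% and 71.8% of the Oxtr UMIs and 69.6% and 55.4% of the Npy UMIs. In the 1340 and 1135 stromal and mural cells no Cbln4 UMI was counted.

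**Figure D3:**
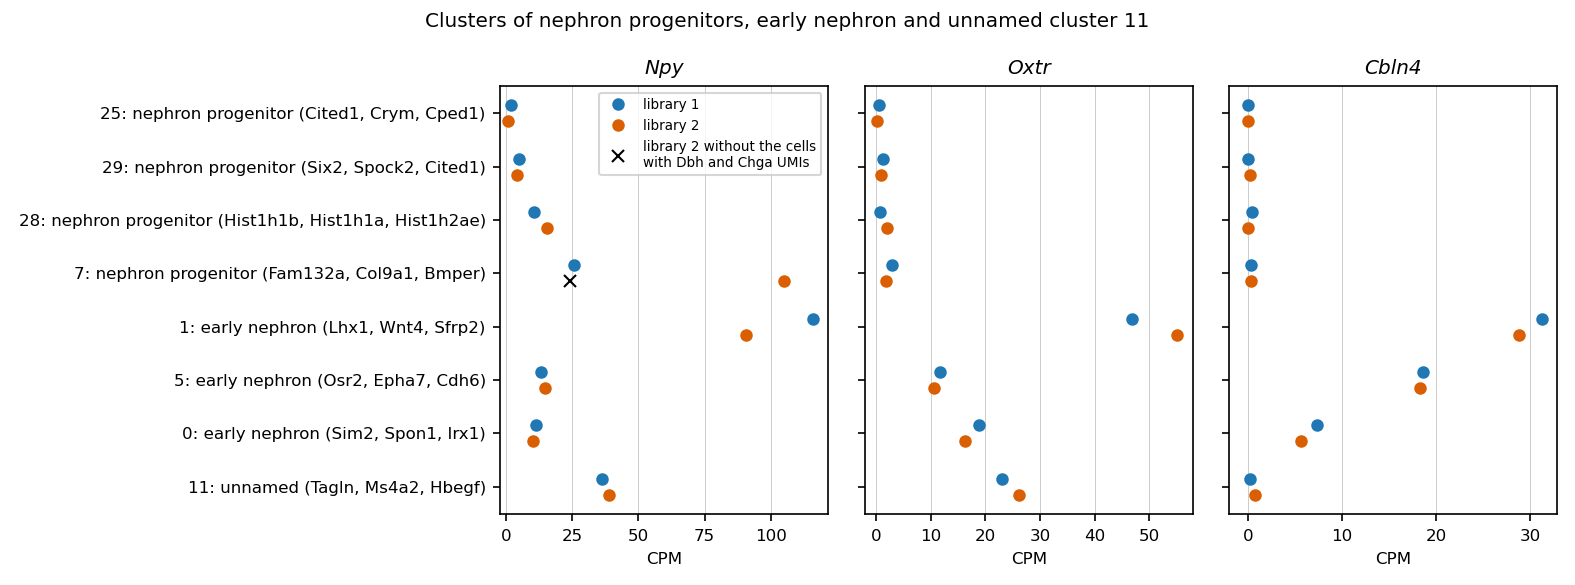
Npy, Oxtr and Cbln4 in the nephron progenitor-like and early nephron clusters and in unnamed cluster 11. The horizontal axis is CPM, the vertical axis names clusters with their leading genes, colours mark the library, and the black cross is Npy of library 2 in cluster 7 without the cells that hold Dbh and Chga UMIs. Of the clusters plotted, cluster 1 is highest for all 3 genes, except that Npy of library 2 is higher in cluster 7 when all cells are kept, and the cross (24.2 CPM) lies beside library 1 (25.6 CPM).

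Free RNA in the droplets was gauged in erythroid-like cells, which should lack these genes. Among 478 and 358 such cells, with a median of 4370.5 and 4461 UMIs, a Nts UMI was seen in 0% and 0.559%, a Penk UMI in 1.46% and 0.279%, an Npy UMI in 0.837% and 0.279%, and an Oxtr UMI in 0.418% of library 1 and no cell of library 2. Cck and Cbln4 had no UMI there. A limit of 3 cells for a count of 0, which is not one of the exact intervals below, allows shares of up to 0.628% and 0.838%. Median depth was 9489.5 and 10152 UMIs in medullary stroma-like cells and 21180.5 and 20449 in renal vesicle-like cells, deeper than the erythroid cells, but with cells thinned to 5000 UMIs the erythroid shares were at most 1.48% (Nts, library 2; 272 and 223 erythroid cells left out), below every thinned share above. Outside the stroma, the mean share of cells with a Penk UMI was 0.872% in erythroid-like and 1.71% in podocyte-like cells and at most 4.96%, in the deeper ureteric tip-like cells. Thinned, these 3 were 0.243%, 0.719% and 0%, and the part of free RNA in them was not tested. Barcodes of 10 to 100 UMIs gave higher levels than erythroid-like cells for Penk, at 24.9 and 14.5 CPM (19 and 12 UMIs), and for Npy, at 3.93 and 10.9 CPM (3 and 9 UMIs). Penk there lay above every group outside the stroma, and Npy of library 2 was near its level in proximal precursor-like and ureteric tip-like cells. Nts, Cck, Oxtr and Cbln4 had at most 3 UMIs in these barcodes of each library. Exact Poisson 95% intervals of the levels were 120 to 176 CPM and 44.6 to 76.3 CPM for Cck in medullary stroma-like cells, so these 2 libraries differed beyond counting error, and 48.2 to 58.3 CPM and 52.0 to 64.0 CPM for Oxtr in renal vesicle-like cells, which overlapped. Exact binomial 95% intervals of the share of cells with a UMI were 39.7% to 62.8% and 37.5% to 58.4% for Nts, 20.8% to 42.2% and 18.0% to 36.7% for Cck, 65.2% to 78.1% and 56.9% to 70.5% for Npy, and 35.1% to 49.2% and 30.9% to 44.6% for Cbln4 in their leading groups. Intervals and limits cover counting error only.

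Markers of neuron, chromaffin and Schwann cells were low where the genes were high. Of 12 such markers, medullary stroma-like cells had a UMI of 4 in library 1 and 3 in library 2, with a summed level of 15.8 and 13.4 CPM, and Tubb3, Prph, Th, Dbh, Chga and Sox10 were among those at 0 in both. Renal vesicle-like cells had a UMI of 7 and 6 of them, summing to 21.1 and 14.1 CPM, and Stmn2, Th, Dbh and Sox10 were among those at 0 in both. Nephron progenitor-like cells had 112 and 130 CPM, led by Elavl4 in library 1 and by Pnmt in library 2.

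Across the 22 groups, the genes with the profile most like each member were ranked by the lower of the library values of Pearson's r on log2(CPM + 1), among 10561 genes. Correlations are descriptions over groups that share a library and differ in depth. For Nts they were the transcript RP23-16L19.4 (r of 0.91 in both libraries), the gate marker Alx1 (0.91 and 0.90), the potassium channel gene Kcnd3, Ano5 and Tshz3. For Cck, Ano5 (0.91 and 0.92), RP23-16L19.4 and Alx1 recurred, with Ano3 and the Wnt inhibitor Apcdd1. Penk lay nearest to genes of the whole stroma: the collagen receptor Ddr2 (0.98 and 0.97), Naalad2, Dact1, Kcnt2 and Dnm3os.

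The renal vesicle genes had other companions. Oxtr and Cbln4 both lay near the Notch ligand Dll1 and the Notch target Hes5: Oxtr at 0.77 and 0.74 with Dll1 and 0.85 and 0.70 with Hes5, Cbln4 at 0.81 and 0.80 with Dll1 and 0.82 and 0.89 with Hes5. Oxtr was also near AW011738, Chn2 and Stxbp5l, and Cbln4 near Osr2, Hsd17b14 and Cpb2. Npy had weaker matches, led by the kinesin gene Kif5c (0.84 and 0.70), with Rnase12, Rmst, Tgfa and the RNA-binding protein gene Msi1. Between members, Nts and Cck were most alike (0.93 and 0.88), Nts and Penk stood at 0.80 and 0.81, Npy and Cbln4 at 0.75 and 0.69, Oxtr and Cbln4 at 0.75 and 0.73, and Npy and Oxtr at 0.42 and 0.38.

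Within the leading groups, members of a set shared some of their cells. Among thinned medullary stroma-like cells, a Cck UMI was seen in 13 of 34 cells with Nts (38.2%) and 6 of 36 without (16.7%) in library 1, and in 10 of 41 (24.4%) and 4 of 50 in library 2. Penk was near saturation in both states. In renal vesicle-like cells the shares were closer: Oxtr was seen in 29.5% and 23.4% of cells with Npy against 21.5% and 22.0% of those without, Cbln4 in 19.2% and 12.5% of cells with Npy against 15.7% and 10.6%, and Oxtr in 29.4% and 39.1% of cells with Cbln4 against 23.6% and 20.3% of those without. Cells within a library are not replicates, so these shares carry no test.

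Genes that differed between cells with and without a member's UMI were then tested within its leading group, on thinned counts summed per library and state, with edgeR's quasi-likelihood test and Benjamini-Hochberg adjustment over all genes tested. Each test had 2 sums per state and 1 residual degree of freedom. For Nts, 83 of 3346 genes passed an adjusted p of 0.05 (2.48%), 49 higher and 34 lower in the cells with Nts. Within this group Nts itself followed cluster 8, with 495 and 955 UMIs inside the cluster and 37 and 1 outside. The part of cluster membership in these calls was not tested. Higher genes included Myh11, a smooth muscle myosin (log2 difference 1.94 ± 0.39 SE, adjusted p = 0.000154), the metalloprotease Adamts1 (1.46 ± 0.26, adjusted p = 8.16e-06), Slc17a8, a vesicular glutamate transporter (1.72), Cpxm2 (2.08), Tmem100 (1.81), Mfap5 (1.47), Sfrp2 (1.37) and Psmd9 (1.32).

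The genes lower in cells with Nts were led by Nfib (-2.80 ± 0.69) and Crk (-2.75), followed by Hist1h2ap (-2.75), Prc1 (-2.65), Cdk1 (-2.46), Hist1h1b (-2.43), Tpx2 (-2.16) and the proliferation marker Mki67 (-2.14 ± 0.37, adjusted p = 6.22e-06). Mki67 had 10 and 4 UMIs in the cells with Nts and 32 and 40 in those without. A check list of 5 genes of dividing cells held 4 that were tested, Mki67, Cdk1, Top2a and Birc5, and all 4 were lower, against 1.02% of all genes tested. The list summed to 200 and 63.6 CPM in cells with Nts and to 567 and 500.0 CPM in those without; its part in the other calls was not tested. DESeq2 called 10 genes, all among the 83. It gave no adjusted p to any gene named above with a log2 difference for Nts, so none of those was among its calls. Without the library block edgeR called 0, and thinning to 3000 or 8000 UMIs gave 39 and 31, so the count depends on the model and the depth.

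For Npy, 35 of 6335 genes passed (0.552%), 10 higher and 25 lower. Cells with Npy had more Wnt4, the Wnt ligand of nephron induction and a marker of the gate itself (0.62 ± 0.08, adjusted p = 0.000317), and more Ccnd1, likewise a gate marker (0.27), with Pdzd2, Fabp5, Nasp, Hist1h1b, Stmn1 and Tmsb10 between 0.27 and 0.62. They had less Mecom (-2.14 ± 0.26, adjusted p = 0.000317 by edgeR), itself a marker of the distal nephron precursor gate that competes for these cells. They also had less Kit (-3.23), Igfbp5 (-2.91), Sct (-2.61), Cdh3 (-2.50), Cxcl14 (-2.34), Ntm (-2.13) and Lrp4 (-1.66). DESeq2 called 0 genes for Npy, where 470 genes had an edgeR p under 0.05 before adjustment, and thinning to 3000 or 8000 UMIs gave 15 and 148 calls. At 3000 UMIs Igfbp5 (0.26), Hist1h1b and Tmsb10 changed sign, as did Hist1h1b without doublet removal, and none of them passed there.

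For Oxtr and Cbln4 hardly any gene passed. Ccnd1 was higher (0.35 ± 0.07, adjusted p = 0.00669) and Gm42418 lower in cells with Oxtr, 2 of 6497 genes (0.0308%), neither called by DESeq2. In cells with Cbln4, 1 of 6302 genes passed (0.0159%): Hbb-bs, a globin gene, was lower (-2.32 ± 0.18, adjusted p = 0.00303), with 23 and 13 UMIs in the cells with Cbln4. For Penk the test was void: only 3 cells in each library lacked it, and on simulated data the same test recovered hardly any of the changed genes. Its 0 calls of 3524 genes by edgeR (0%), with 194 at an unadjusted p under 0.05, and 0 by DESeq2 therefore say nothing about Penk. Cck was not tested, since 19 and 14 cells had its UMI and the minimum, set only for cells with the UMI, was 20.

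Most receptors of the peptides were highest in other cell groups or were scarcely counted, while Ogfr and Neo1 were counted in all 22 groups. Ntsr1, the main neurotensin receptor, was highest in cortical nephrogenic-zone stroma-like cells at 14.4 and 19.4 CPM, where Nts had no UMI, and had 3 UMIs in each library in medullary stroma-like cells. Ntsr2 had 3 UMIs in all. The sorting receptors Sort1 and Sorl1, which also bind neurotensin, were highest in collecting duct-like cells, Sort1 at 104 and 66.2 CPM. The classical opioid receptors were nearly silent, with 7 UMIs of Oprm1, 4 of Oprd1, 11 of Oprk1 and 7 of Oprl1 in all cells. Ackr3, an atypical chemokine receptor that also takes up opioid peptides, was highest in podocyte-like cells at 275 and 280 CPM. Ogfr, the opioid growth factor receptor, which binds met-enkephalin, had 9943 UMIs. It stood at 68.4 and 47.5 CPM in medullary stroma-like cells and at 57.8 and 61.3 CPM in its highest group, podocyte-like cells, so these did not differ beyond their spread, and it was lowest in erythroid-like cells (1.65 and 1.78 CPM).

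Cckar, a cholecystokinin receptor, was highest in proximal tubule-like cells at 14.5 ± 0.616 CPM (153 and 110 UMIs), followed by their precursors, and Cckbr had 27 UMIs in all, of which 11 and 10 were in loop of Henle-like cells of the libraries. Receptors of neuropeptide Y were scarce: Npy1r had 38 UMIs, Npy2r 61, Npy4r 6 and Npy5r 1. Oxt, the precursor of oxytocin, had 35 UMIs and Avp, that of vasopressin, had 1, so little transcript for the ligand of Oxtr was counted in the kidney itself. Avpr1a, a vasopressin receptor related to Oxtr, was highest in adventitial fibroblast-like cells (40.5 and 18.6 CPM), and Avpr2 in collecting duct-like cells (58.6 and 37.7 CPM). Of the partners of cerebellins, Nrxn3 was highest in medullary stroma-like cells (149 and 253 CPM), Nrxn2 in nephron progenitor-like cells (30.8 and 33.0 CPM), Grid1 in proximal tubule precursor-like cells (18.3 and 20.6 CPM) and Neo1, or neogenin, in ureteric tip-like cells (101 and 116 CPM). Dcc, a relative of Neo1, had 56 UMIs and Avpr1b 3.

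**Figure D4:**
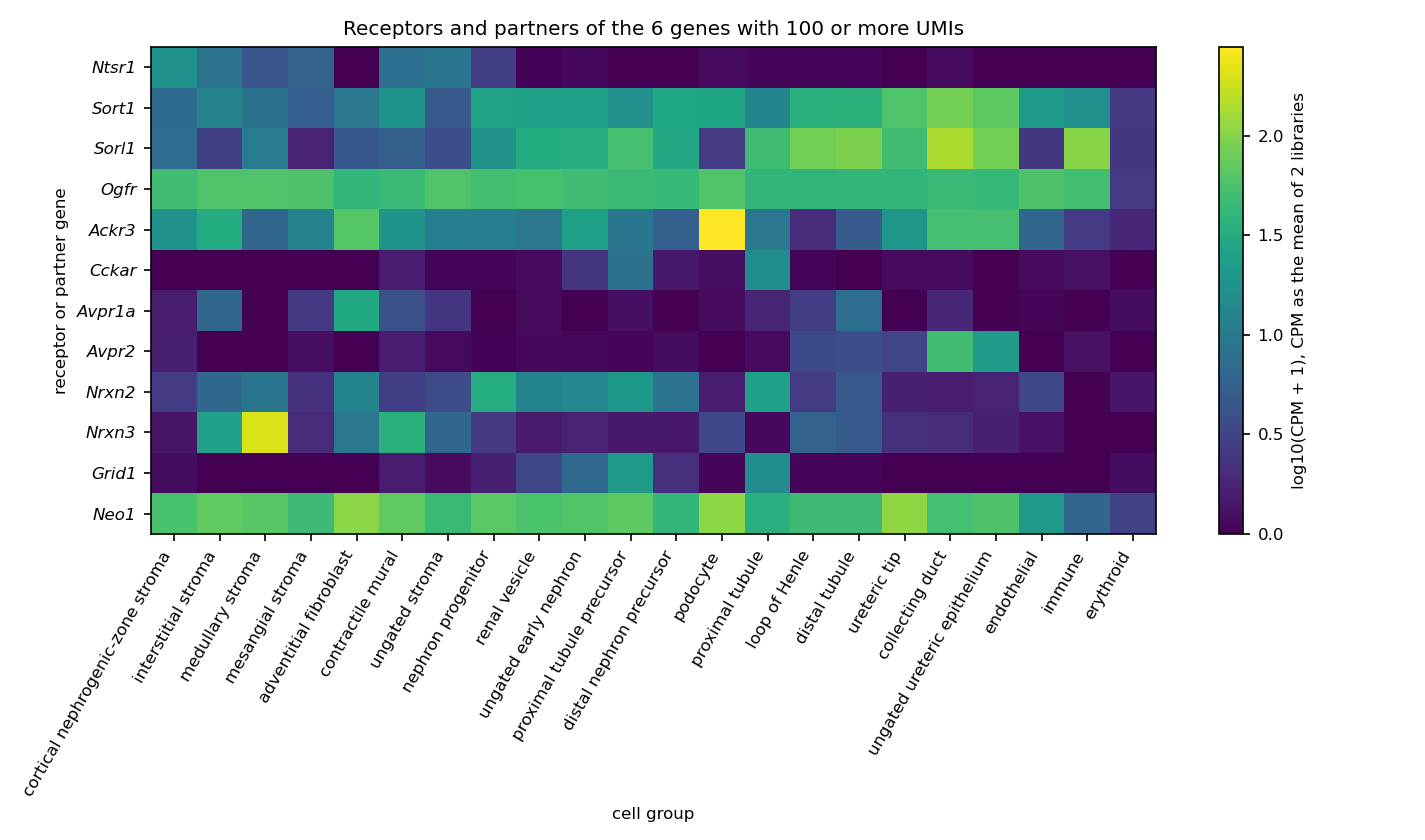
Heat map of 12 receptors and partners of the peptides across the 22 cell groups. Rows are reported genes with at least 100 UMIs in all, columns are cell groups, and the colour is log10(mean CPM + 1) over both libraries, from dark (low) to yellow (high). Nrxn3 is brightest in medullary stroma-like cells, Ntsr1 in cortical nephrogenic-zone stroma-like cells and Ackr3 in podocyte-like cells.

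The 4 lists of peptide pathway genes (receptors and partners, processing enzymes and granule proteins, peptidases, other precursors) were tested between groups on UMIs summed per library and group, with the library as a block, in 1 edgeR fit of 14930 genes. Of 89 listed genes 54 could be tested. The groups were formed from these same counts, so a call says how the groups differ and is no independent check of the grouping. Fits average the groups on the log scale, so a gene with no UMI in some group on its higher side could not be called. That held for 23 of the 54 pathway genes (2734 of all genes) in the comparison of stromal with other groups, where DESeq2 called 6 of the 23, for 11 (1593) in that of medullary stroma and for 4 (395) in that of the early nephron.

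In medullary stroma-like cells against the 5 other gated stromal groups, 857 genes were higher (5.74%) and 546 lower (3.66%). Of the 54 pathway genes 8 were higher and 6 lower, with a median log2 difference of -0.04 against 0.01 over all genes. Nrxn3 was higher by 5.35 ± 0.34 (adjusted p = 4.75e-15 by edgeR's quasi-likelihood test). Among processing genes, the convertase Pcsk5 (1.32) and the amidating enzyme Pam (0.80) were higher and the carboxypeptidase Cpe, which trims peptide precursors, was lower by -3.76 ± 0.32 (adjusted p = 7.71e-12), at 5.26 and 9.30 CPM against 106 and 127 CPM.

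Of the peptidases, Enpep was higher (2.14), while Mme, or neprilysin, which degrades enkephalins (-1.43), and the aminopeptidase Anpep (-2.29) were lower. Among other precursors, Edn3 was higher (2.16) and Adm lower (-3.48). Scg3 and Pnoc also passed as higher, but each had 1 and 11 UMIs in medullary stroma-like cells, and DESeq2 called neither Scg3 (adjusted p = 0.669) nor Pnoc (adjusted p = 0.909). The called receptor Ackr3 was lower (-2.15).

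These calls depended on which cells entered the compared groups. At a mitochondrial limit of 5% Cpe (1.10), Mme (0.97) and Ackr3 (1.84) passed in the opposite direction, as higher, with Cpe at 233 and 212 CPM in the medullary stroma-like group. At that limit 4 instead of 5 other stromal groups were on the other side. The split became 13 higher and 2 lower there, and 8 of the 14 genes passed again, these 3 included. With at least 5000 UMIs per cell or Leiden resolution 2, neither Cpe (-0.20 and -0.24) nor Mme passed, and the splits were 13 and 3 and 10 and 3. Without the rules added after seeing the data, which left cluster 8 without a name, the split was 3 and 5. There Nrxn3 did not pass (1.95 and 2.16 CPM in the group), Pcsk5 (-0.75) and Pam (-0.36) changed sign without passing, and Mme passed as higher (0.60). Edn3 passed neither under the 5% limit, where its sign changed (-1.08), nor without the added rules (0.81), and Anpep changed sign under sub-clusters (0.40). Alx1, the gate marker, stood at 313 and 362 CPM in the group as reported, at 92.8 and 114 CPM under the 5% limit and at 131 and 182 CPM without the added rules; its part in these changes was not tested.

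In the 6 gated stromal groups against the 15 other groups, 3842 genes were higher (25.7%) and 4026 lower (27%), and 15 of the 54 pathway genes were higher and 7 lower (medians 0.31 and, over all genes, -0.09). Edn3 (6.20 ± 0.57), Adm (4.38), Nrxn3 (4.02), Cpe (2.64), Pcsk5 (2.38) and Pam (0.80) were higher, and Scg5 (-4.38 ± 0.60), Sorl1 (-3.26), Dpp4 (-3.08) and Sort1 (-1.77) lower, by edgeR's test. The fit averages groups on the log scale, and for 2 of the 15 higher calls the mean CPM went the other way in both libraries: Ackr3 had 26.4 and 21.7 CPM in the stromal against 33.2 and 30.2 CPM in the other groups, and Enpep 87.2 and 75.9 against 89.3 and 90.0 CPM. With stromal groups from sub-clusters Edn3, Adm and Nrxn3 could not be called, since contractile mural-like cells then held no UMI of them, nor could Scg5 at 5000 UMIs, with none in erythroid-like cells, and Nrxn3 did not pass without the added rules.

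In the 3 gated early nephron groups against nephron progenitor-like cells, 3336 genes were higher (22.3%) and 4123 lower (27.6%), and 18 pathway genes were higher and 17 lower (medians 0.05 and, over all genes, -0.06). The largest increase among peptidases known from the tubular brush border was that of Dpp4, at 166 and 180 CPM against 3.99 and 2.69 CPM (adjusted p = 6.53e-26 by edgeR), followed by Mme (3.57) and Enpep (3.50), and 7 of 12 breakdown genes were higher. Pcsk2 (3.02), Scg5 (1.69) and Grid1 (2.40) were higher too, as were Cckar (2.82), Nppc (3.76) and Edn1 (2.43). Lower genes included Ntsr1 (-5.52 ± 0.65), Nrxn2 (-1.52), Cpe (-1.27) and the precursors Pdyn (-6.69), Pthlh (-5.52) and Tac2 (-4.18).

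Chgb also passed as lower (-3.43), with 0.550 CPM in library 1 and 8.54 CPM in library 2 of the progenitors. Without the 3 cells that hold Dbh and Chga UMIs it was too low to be tested, and 34 instead of 35 pathway genes passed. DESeq2 called neither Chgb (adjusted p = 0.282), Cckar (0.132) nor Pdyn (0.531). Of the 35 calls, 34 went the same way in both libraries, and the exception was Tpp2. At a mitochondrial limit of 5% Cpe and Tac2 did not pass, and Cckar and Nppc could not be called, since a group on their higher side held no UMI. Pdyn and Pthlh were too low to be tested at that limit, as was Pthlh at Leiden resolution 0.5. Cckar also did not pass without doublet removal or without the added rules.

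**Figure D5:**
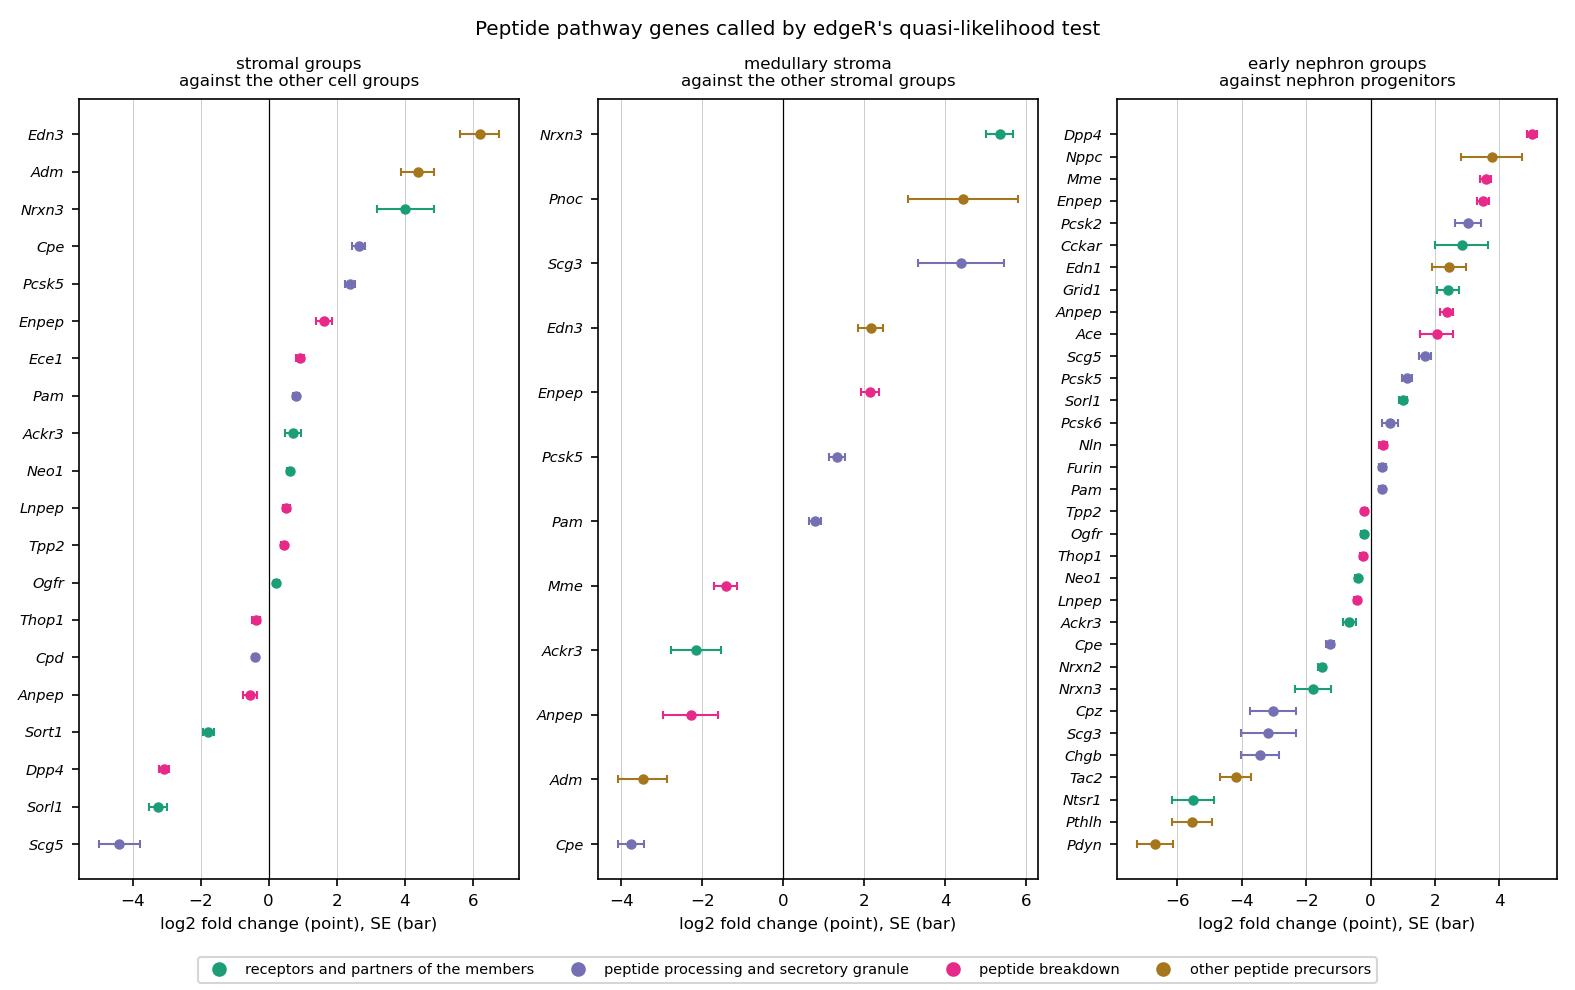
The reported pathway genes among those called in each of the 3 comparisons. The horizontal axis is the log2 fold change, bars are its standard error, colours mark the gene list, and genes are sorted by size. Nrxn3 (5.35) is far to the right and Cpe (-3.76) far to the left for medullary stroma-like cells; Cpe changed sides at a mitochondrial limit of 5%.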

How the data were processed

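The deposited matrices hold raw UMI counts per gene and barcode, made by the authors with Cell Ranger (version 6.0.1 and genome mm10 per the submitters' processing notes; major version 4 per the file headers). All barcodes were deposited, so cells were called here. Barcodes with at least 2000 UMIs and at most 10% mitochondrial UMIs were kept, and doublets were removed by Scrublet score at a share that grows with the number of cells (310 and 212 cells, 4.98% and 4.12%), since its automatic threshold marked 63 and 22. Clustering used scanpy 1.11.5 (2000 variable genes, 30 components, 15 neighbours, Leiden resolution 1), which gave 34 clusters, 29 of them named. A cluster took the class with the highest mean scaled marker level, at least 0.3, with at least 3 markers each in 10% of cells. Near ties (0.1) went to the class with more markers among the leading genes, and stroma and mural did not count against each other; both rules were added after seeing the data. Gates needed a mean scaled level and a lead of 0.25. The members and all lists were chosen with earlier results of these data known.

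Levels are counts-per-million of a group's UMIs (CPM), with mean ± SD over the 2 libraries, and exact 95% intervals (scipy 1.17.1). Summed counts were tested with edgeR 4.0.16 (quasi-likelihood, TMM, filterByExpr, library as a block, Benjamini-Hochberg over all genes) in R 4.3.3; the fit of groups had 44 columns and 21 residual degrees of freedom. DESeq2 1.42.0 was an alternative. With the library as a block, p-values measure the scatter left between groups or states of these same 2 libraries. Groups of 1 library are not independent samples, so the p-values do not measure a spread between animals. Each test was tested on simulated data. Named genes were all members, the 4 largest called changes in each direction per pathway list with every receptor or ligand of a member, the 5 most similar profiles, and the 8 largest changes in each direction between cells with and without a UMI, of which the text names most; some genes of the lists are counted but not reported here by name. Gene positions come from RefSeq's table for GRCm38.p6, the assembly of mm10. No sequence is shown.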

Additional observations from a re-analysis of the deposited data

Results flagged for a closer look

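Clusters that could not be named from their markers lie outside the 22 groups, and 3 values there rested on more than 3 UMIs in each library and lay above the erythroid-like level. Npy stood at 37.6 CPM in unnamed cluster 11 (36.4 and 38.8 CPM from 162 and 102 UMIs), and Oxtr at 24.7 CPM in the same cluster (23.1 and 26.2 CPM from 103 and 69 UMIs). Cluster 11 held 315 cells and was led by Tagln, Ms4a2, Hbegf and Pcp4. Its best class was podocyte, but none of that class's markers was among its 10 leading genes. Nts stood at 13.6 CPM in unnamed cluster 3 (19.0 and 8.27 CPM from 20 and 5 UMIs), whose 139 cells were led by Eln, Edn1, Stmn2 and Sox17. Other values above the erythroid-like mean rested on 3 or fewer UMIs in at least 1 library, among them Oxtr in cluster 3 (18 and 1 UMIs) and Penk in cluster 11 (41 and 1 UMIs). The cause of these values was not tested.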

How the results depend on the processing

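Leaving out either library gave 699 to 988 CPM for Nts, 2360 to 2561 for Penk, 58.9 to 146 for Cck, 81.2 to 114 for Npy, 53.1 to 57.7 for Oxtr and 32.7 to 39.5 for Cbln4. The leading group stayed the highest of the groups compared in all 13 settings for 5 genes, and in 11 for Cbln4, where proximal tubule precursor-like cells were highest without doublet removal and under class names without the added rules. Under those class names cluster 8, high in Nts, Penk and Cck, had no name and was not compared. Among the alternative levels and counts 88 stayed within the spread or within 1.5 times the main count, and 50 moved. Of the alternative values of named genes 537 kept direction and call, 137 kept the direction without passing and 20 changed sign. The cause was not tested. Levels that moved past the spread were, for a minimum of 5000 UMIs, 516 (Nts), 1494 (Penk) and 61.6 (Oxtr) CPM. A mitochondrial limit of 5% gave 266 (Nts), 678 (Penk), 16.4 (Cck), 130 (Npy), 69.9 (Oxtr) and 48.1 (Cbln4). Without doublet removal Penk had 2307 and Oxtr 60.2. Leiden resolution 0.5 gave 72.3 for Oxtr and 47.1 for Cbln4, and resolution 2 gave 533 (Nts), 1547 (Penk) and 59.1 (Oxtr). Groups from distinct markers gave 524 (Nts), 1734 (Penk), 43.7 (Oxtr) and 27.9 (Cbln4), and sub-clusters gave 2048 for Penk. Class names without the added rules, an alternative chosen after seeing the data, gave 52.6 (Nts), 1049 (Penk), 5.38 (Cck) and 64.1 (Oxtr). Called pathway genes of medullary stroma-like cells went from 14 to 8 under groups from distinct markers and to 8 without the added rules, and those of the early nephron from 35 to 12 at the 5% limit and to 23 at resolution 0.5. Signs changed, as log2 differences in medullary stroma-like cells, at the 5% limit for Cpe (1.10), Mme (0.97), Ackr3 (1.84) and Edn3 (-1.08), at 5000 UMIs for Mme (0.26) and Ackr3 (0.72), at resolution 2 for Mme (0.25) and Ackr3 (0.68), under sub-clusters for Anpep (0.40), and without the added rules for Nrxn3 (-0.37), Pcsk5 (-0.75), Pam (-0.36) and Mme (0.60). In the early nephron they changed at the 5% limit for Cckar (-0.00344) and Tpp2 (0.16) and at resolution 0.5 for Tpp2 (0.0379). Between cells with and without Npy they changed at 3000 UMIs for Hist1h1b (-0.0256), Tmsb10 (-0.0168) and Igfbp5 (0.26), and without doublet removal for Hist1h1b (-0.0778).

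Genes between cells with and without a UMI were the least stable. For Nts the 83 calls became 10 with DESeq2, 39 and 31 at 3000 and 8000 UMIs and 22 without doublet removal. Penk went from 0 to 35 without a filter on low counts, to 1 at 3000 UMIs and to 7 without doublet removal. Npy went from 35 to 54 without a filter, 0 with DESeq2, 15 and 148 at 3000 and 8000 UMIs and 8 without doublet removal. Oxtr went from 2 to 8 without a filter, 0 with DESeq2, and 1 and 42 at 3000 and 8000 UMIs, and Cbln4 from 1 to 26 without a filter and 82 at 8000 UMIs. Without the replicate block, which the labels do not number, Nts had 0 calls, Penk 0, Npy 30, Oxtr 0 and Cbln4 2, and the 3 pathway comparisons had 22, 15 and 31. With 1 library left no test was possible. Cbln4 was not tested at 3000 UMIs or without doublet removal, nor Penk at 8000 UMIs, since too few cells fell in a state. Cck, Nts outside the stroma and Oxtr in medullary stroma-like cells rest on few UMIs, which limits their precision.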
